A study of Mus musculus with 6 samples.

Results

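The genes described here are the neighbours of Nsun7 on mouse chromosome 5, from Rell1 and Tbc1d1 on one side to Exoc1 on the other. They were chosen by name for their place and not for their values, though with earlier results of these data known. All 59 had a row among the 34144 gene rows of the series, and other rows of the stretch are not among them. Nsun7 lies between Rbm47 and Apbb2, with 19 of the 59 genes on the side of Rell1 and 40 on the side of Exoc1. RNA from the testes of 6 mice was sequenced, 3 labelled WT and 3 labelled Nsun7-/-, all labelled C57Bl/6J and 3 months old, with each library from 1 mouse. The labels describe neither the Nsun7 allele nor how the mice were bred, and no treatment is given for either genotype. Tubules from decapsulated testes were the source of the RNA, and lists of markers for Leydig, endothelial and white blood cells held no gene without a count. Spermatid markers, among them the protamines, summed to between 5062 and 7842 CPM (library-scaled read counts) over the 6 libraries.

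Genes that lie side by side on a chromosome can share enhancers and chromatin domains, and they are inherited together more often than distant genes. They need not share a function or be used in the same cells. The stretch around Nsun7 holds receptors of blood and vessel cells, enzymes, ion and lipid transporters, factors of membrane traffic, and a few genes known from germ cells. In testis most RNA comes from spermatocytes and spermatids.

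Nsun7 itself, the disrupted gene, stood at 36.6, 35.7 and 37.2 CPM in WT mice 1, 2 and 3. It stood at 18, 17.8 and 25.2 CPM in knockout mice 1, 2 and 3. CPM here are counts scaled to the library size after TMM normalization, an edgeR step that puts libraries on a common scale. All 3 knockout libraries lay below the wild-type ones in CPM (log2 fold change -0.84, SE 0.15, edgeR quasi-likelihood test, Benjamini-Hochberg adjusted p = 0.016). In TPM the genotypes overlapped. Transcripts remained in each knockout library. The exact two-sided permutation test on CPM gave p = 0.1, the smallest that 3 against 3 libraries allow. The adjusted p rose above the threshold of 0.05 without wild-type mouse 1 (0.0848), 2 (0.0556) or 3 (0.0785), or without knockout mouse 2 (0.093).

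Most neighbours of Nsun7 kept a similar level in both genotypes, and a few differed by several fold. Of the 59 genes 55 had enough counts to be tested, and 40 of these had a log2 fold change of less than 0.3 in size. Past the adjusted threshold were 4 genes, or 7.27% of those tested, against 0.567% of all 21002 tested genes. Lower in the knockout were Atp10d, of the lipid flippase class, the leucine-rich repeat gene Lrrc66 and the membrane traffic gene Scfd2. The magnesium transporter gene Nipal1 was higher, and it passed the low-count filter through its knockout libraries. With a filter at a mean CPM of at least 1, Nipal1 was not tested. There 3 neighbours were called, and 110 genes in the whole table. The adjusted calls in the whole table were 0.233% higher and 0.333% lower. DESeq2 also called 4 of the neighbours, but it called 203 genes in the whole table where edgeR called 119. Since the RNA came from mixed cells, fewer cells of a type and less RNA per cell cannot be told apart.

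The other 51 tested neighbours had log2 fold changes between -1.38 and 1.01, and the lowest adjusted p among them was 0.112. The CPM of the genotypes did not overlap for 13 of the 55, or 23.6%, 8 higher and 5 lower in the knockout. The same was true of 14.3% of all tested genes, 7.38% higher and 6.95% lower. An unadjusted p under 0.05 was found for 13 neighbours too, against 8.39% of all tested genes. The median log2 fold change of the 55 was 0.06 and that of all tested genes 0.01, while the median size of the change was 0.15 and 0.16. The typical neighbour thus changed about as little as the typical tested gene. Of the 55, 36 were above 0 and 19 below. On deposited TPM (a relative abundance that also corrects for length), with a pseudocount of 1, this split was 48 and 7, where the median of all tested genes moved to 0.24, and it was 30 and 25 once each library was centred on its median gene.

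**Figure D1:**
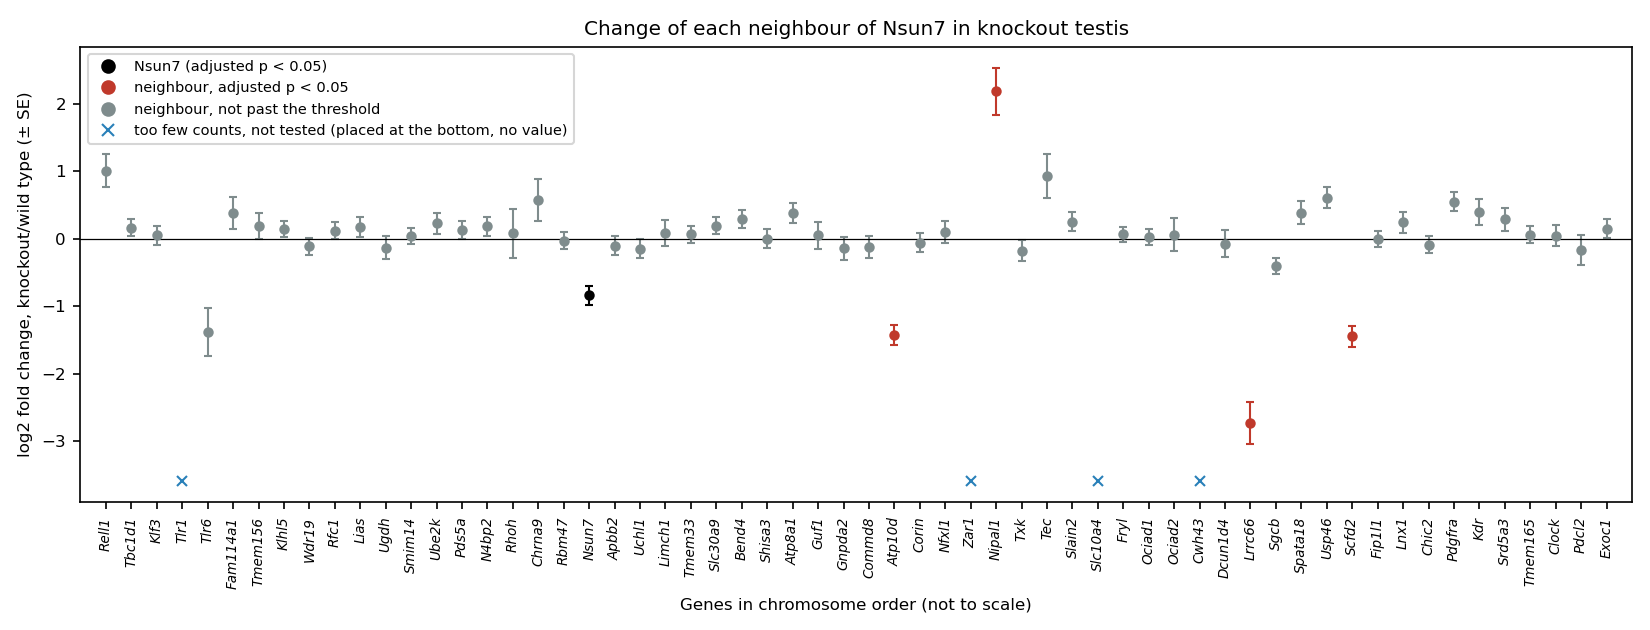
Log2 fold change of knockout against wild type (y axis, points with SE, from 3 libraries per genotype) for Nsun7 and its neighbours in chromosome order (x axis, not to scale). The 4 genes past the adjusted threshold, Atp10d, Nipal1, Lrrc66 and Scfd2, all lie on the Exoc1 side (Klb, a called gene on the Rell1 side that is not among the 59, is not drawn). The drawn genes next to them lie near 0 or were not past the threshold.

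Among the 59, the 4 called genes were not the nearest to Nsun7. Counted outward towards Exoc1, with rows outside the 59 skipped, they were number 12 (Atp10d), 16 (Nipal1), 26 (Lrrc66) and 30 (Scfd2). The 11 of the 59 between Nsun7 and Atp10d, from Apbb2 to Commd8, were all tested. None passed in edgeR or DESeq2, with log2 fold changes from -0.15 to 0.38. An unadjusted p under 0.05 was found for 2 of the 11, against 8.39% of all tested genes. On the Rell1 side 0 of 18 tested genes of the 59 passed in edgeR and 0 in DESeq2, and 2 of them, Rell1 and Tlr6, had an unadjusted p under 0.05. The 10 of the 59 beyond Scfd2, from Fip1l1 to Exoc1, were between -0.17 and 0.55. Of them 0 were called by either tool and 1, Pdgfra, had an unadjusted p under 0.05. Whether the sides differ was not tested.

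Among the 59, the genes next to a called gene did not move with it past the threshold. Commd8 and Corin, on either side of Atp10d, were at -0.13 and -0.06. Txk, beside Nipal1, was at -0.18, and Zar1 on its other side had too few counts. Lrrc66 lies between Dcun1d4 at -0.08 and Sgcb at -0.40. Scfd2 lies between Usp46 at 0.61 and Fip1l1 at -0.01. All are log2 fold changes with adjusted p of 0.165 or more. Sgcb, Spata18 and Usp46, which lie between Lrrc66 and Scfd2, all 3 had an unadjusted edgeR p under 0.05, against 8.39% of all tested genes. Their log2 fold changes ran from -0.40 to 0.61, with 2 above 0. From Corin to Zar1 such a p was found for 0 of 2 tested genes, and from Txk to Dcun1d4 for 1 of 7. The ends of these stretches were set by the called genes, so they were drawn from the same test results.

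Rows of the same stretch that are not among the 59 were counted in the same way. Of 75 such rows, Nsun7 left out, 29 were tested and 2 passed, or 6.9%, both lower in the knockout. Klb, the co-receptor beta-klotho, lies on the Rell1 side between Rfc1 and Lias, and had 18.8 ± 0.88 CPM in WT against 0.683 ± 0.352 in knockouts (SD, n = 3). Its log2 fold change of -4.78 (SE 0.25, edgeR adjusted p = 1.08e-07) was larger in size than that of any of the 55 tested neighbours. The noncoding row C330024D21Rik, on the Exoc1 side, had 2.36 ± 0.565 CPM in WT against 0.595 ± 0.236 in knockouts (SD, n = 3). Its log2 fold change was -1.96 (SE 0.33, edgeR adjusted p = 0.0117). Counts of this row were 46, 51 and 78 in WT mice 1, 2 and 3 and 8, 20 and 22 in the knockout mice. Knockout mouse 1 thus lay below the minimum count of 10, and the row passed the low-count filter through its wild-type libraries. On the rest of chromosome 5, 23 of 1219 tested genes passed (1.89%), and on the other chromosomes 84 of 18768 (0.448%). These shares are counts and were not compared by a test.

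Atp10d encodes a P4-type ATPase, a class of pumps that flip lipids between the leaflets of a membrane. GENCODE M21 gives it the class polymorphic pseudogene, used for genes that are coding in some strains or individuals and interrupted in others. Which form these mice carry was not examined. Atp10d stood at 26.6, 30.7 and 33.7 CPM in WT mice 1, 2 and 3, and at 10.9, 9.79 and 13.2 CPM in knockout mice 1, 2 and 3. Every knockout library lay below every wild-type library. The knockout level was 37.2% of the wild-type one (log2 fold change -1.43, SE 0.15, edgeR quasi-likelihood adjusted p = 0.000224). In the fits that lacked 1 library the adjusted p reached at most 0.00246. On log2(TPM + 1) it was at -0.82 and not called (0.257), and on centred TPM at -1.11 and called (0.00828). No annotated gene overlaps it on the other strand.

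Nearly all Atp10d counts belonged to 1 of its 4 annotated transcripts, of 6052 bases. Its share of the gene's estimated counts was 98.8%, 98.9% and 99.7% in WT mice 1, 2 and 3 and 97.6%, 89.1% and 97% in the knockout mice. The transcript fell from 745 ± 149 to 297 ± 86.4 estimated counts (SD, n = 3). Its log2 fold change of -1.50 did not pass among all transcripts (adjusted p = 0.134). The lower gene value was thus seen on the main transcript.

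Lrrc66 encodes a membrane protein with leucine-rich repeats. Its level was 5.57, 2.99 and 6.74 CPM in WT mice 1, 2 and 3 and 0.647, 0.825 and 0.809 CPM in the knockout mice. The wild-type libraries spread more than the knockout ones but the genotypes did not overlap, in CPM or TPM. The knockout mean was 14.9% of the wild-type mean (log2 fold change -2.73, SE 0.31, edgeR adjusted p = 0.000397). Leaving out any single library kept the call (highest adjusted p 0.0182), and dropping WT mouse 1 together with knockout mouse 3 ended it (0.064), as did log2(TPM + 1) at -1.52 (0.258) and centred TPM at -1.81 (0.147). The transcript of 3198 bases carried between 89.5% and 100% of the counts in every library, with 117 ± 39.9 estimated counts in WT against 21 ± 4.58 in knockouts (SD, n = 3; log2 fold change -2.66, adjusted p = 0.155 among all transcripts).

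Scfd2 encodes a member of the Sec1 family, proteins that act on SNARE complexes in vesicle fusion. Its gene row stood at 97.2, 66.7 and 83.3 CPM in WT mice 1, 2 and 3 and at 34, 31.3 and 25.3 CPM in knockout mice 1, 2 and 3. The lowest wild-type library lay well above the highest knockout library. The knockout level was 36.6% of the wild-type level (log2 fold change -1.45, SE 0.16, edgeR adjusted p = 0.000247). In the fits that lacked 1 library the adjusted p reached at most 0.00508. The call was lost on log2(TPM + 1) at -0.70 (0.21) but not on centred TPM at -0.99 (0.0103). GENCODE M21 lists predicted genes inside Scfd2 on the same strand and none on the other.

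**Figure D2:**
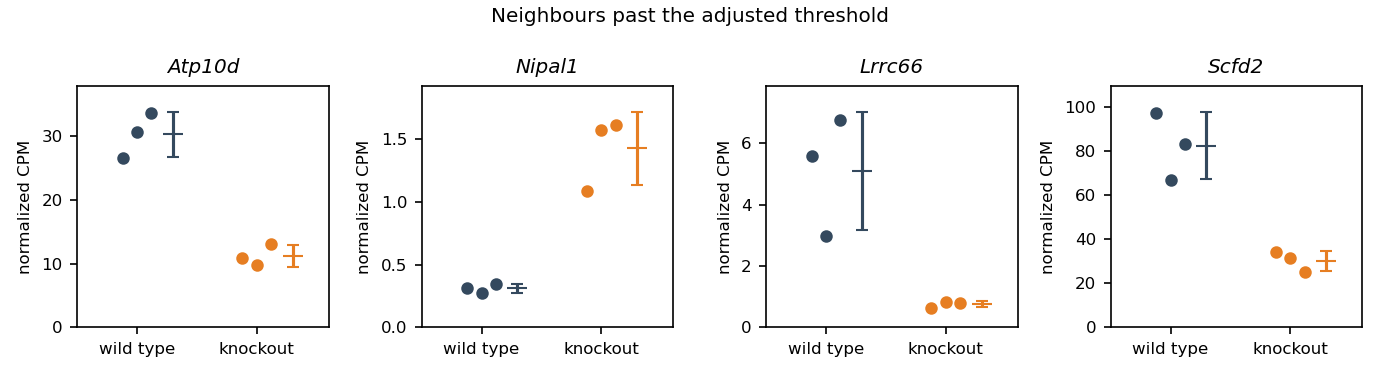
Normalized CPM (y axis, each panel starting at 0) of the 4 neighbours past the adjusted threshold in 3 wild-type and 3 knockout libraries (points), with mean and SD beside them. The genotypes do not overlap in any panel, and Nipal1 is the one gene with the knockout libraries on top.

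The fall of Scfd2 was concentrated in 1 of its 9 annotated transcripts. That transcript (ENSMUST00000075848, 2261 bases) is annotated as a target of nonsense-mediated decay, the pathway that degrades RNAs with a premature stop codon. Its estimated counts were 1273, 868 and 1209 in WT mice 1, 2 and 3, against 60.8, 85.7 and 58 in knockout mice 1, 2 and 3. In wild type it was the most abundant Scfd2 transcript, and in each knockout library it was a small part. Its share of the gene's counts was 55.2% ± 4.51 in WT against 8.31% ± 1.69 in knockouts (SD, n = 3). Its log2 fold change was -4.20 (SE 0.30, edgeR adjusted p = 0.0275 over 58773 transcripts), and it was the sole transcript of the 59 genes to pass, of 225 tested, where 0.0272% of all transcripts passed. The adjusted p rose to between 0.0786 and 0.178 when any 1 library was left out, where its log2 fold change lay between -4.41 and -4.00.

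The protein-coding transcript of 2279 bases (ENSMUST00000113542) had estimated counts of 751, 631 and 760 in WT and 538, 543 and 498 in the knockout mice. Its share of the gene's counts was 35.6% ± 0.908 in WT against 64.3% ± 0.662 in knockouts (SD, n = 3), and its own log2 fold change was -0.60 (edgeR adjusted p = 0.932). All Scfd2 transcripts other than that of 2261 bases summed to 36.8 ± 3.23 CPM in WT against 27.7 ± 4.47 CPM in knockouts (SD, n = 3; log2 ratio of the means -0.41, exact two-sided permutation p = 0.1, the smallest possible). These transcripts together thus differed by much less than the gene row did.

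The pair of transcripts use the same splice sites up to the end of the fourth exon and then part. They are shown because the counts that differ between the genotypes are told apart by what follows that exon. The shorter transcript goes on into an exon in which the reading frame meets a stop codon, printed here in capitals (GENCODE M21, chr5:74458520-74458642 in GRCm38, minus strand), and ends in a further noncoding exon. The longer one goes on with the next coding exon, of which the first 120 bases are printed (chr5:74397784-74397903 in GRCm38, minus strand).
Scfd2 transcript of 2261 bases: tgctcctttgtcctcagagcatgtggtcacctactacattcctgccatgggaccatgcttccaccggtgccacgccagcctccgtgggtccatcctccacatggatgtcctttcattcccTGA
Scfd2 transcript of 2279 bases: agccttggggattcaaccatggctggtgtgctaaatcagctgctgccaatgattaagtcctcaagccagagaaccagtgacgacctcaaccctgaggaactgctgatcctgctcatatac

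**Figure D3:**
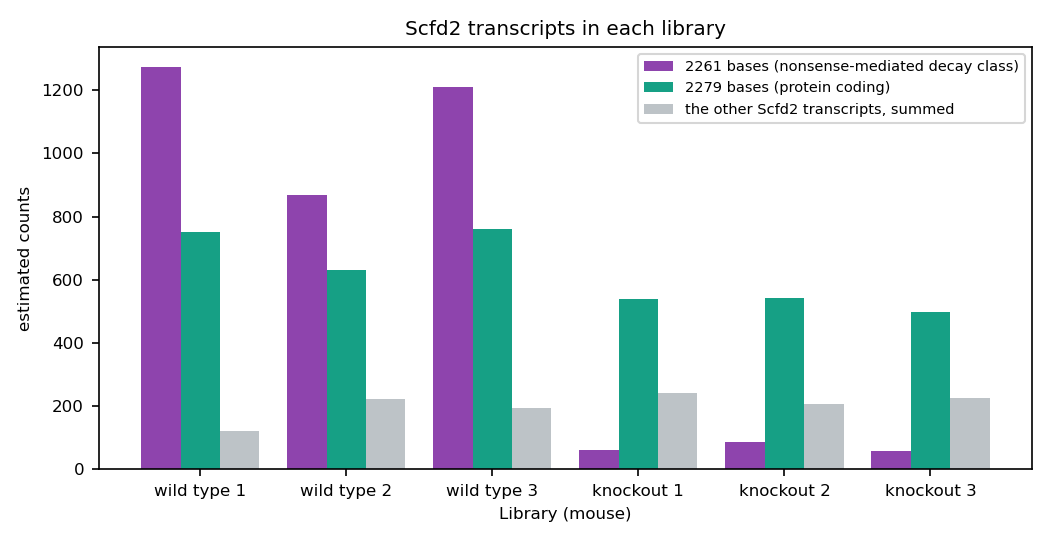
Estimated counts (y axis) of the Scfd2 transcript of 2261 bases, the one of 2279 bases and the sum of the others, as bars for each of the 6 libraries (x axis). The bars of the 2261-base transcript are the tallest in the 3 wild-type libraries (868 to 1273) and the lowest in the 3 knockout libraries (58 to 85.7).

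Nipal1, a member of the NIPA family of magnesium transporters, was the one neighbour past the threshold that was higher in the knockout. Its counts were 7, 7 and 9 in WT mice 1, 2 and 3, against 27, 42 and 50 in knockout mice 1, 2 and 3. In CPM this was 0.312 ± 0.038 in WT against 1.43 ± 0.292 in knockouts (SD, n = 3), a level 4.58-fold higher. All wild-type counts lay below the minimum count of the filter on low counts, and all knockout counts lay above it. The gene thus passed the filter through its knockout libraries. No library of one genotype reached the other. The log2 fold change was 2.18 (SE 0.35, edgeR adjusted p = 0.00855). It was not called without wild-type mouse 1 (0.0618) or 2 (0.0564), with WT mouse 1 and knockout mouse 3 dropped together (0.104), or on centred TPM (0.311). Its transcript of 4206 bases had 5.99 ± 2.61 estimated counts in WT against 33.1 ± 11.3 in knockouts (SD, n = 3; adjusted p = 0.482 among all transcripts).

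The starts of the called genes are shown as the stretches from which their RNA would be begun, although no binding or methylation was measured at them. RefSeq gave an upstream window for 3 of the 4 called genes, Nipal1, Lrrc66 and Scfd2, and for 56 of the 59. The 250 bases before the annotated start are printed 5′ to 3′ on the strand of the gene (GRCm38.p6), with matches to GGGCGG (the GC box) and CCAAT on either strand in capitals. They lie at chr5:72647546-72647795 on the plus strand for Nipal1, and on the minus strand at chr5:73632422-73632671 for Lrrc66 and chr5:74531743-74531992 for Scfd2.
Nipal1 upstream window: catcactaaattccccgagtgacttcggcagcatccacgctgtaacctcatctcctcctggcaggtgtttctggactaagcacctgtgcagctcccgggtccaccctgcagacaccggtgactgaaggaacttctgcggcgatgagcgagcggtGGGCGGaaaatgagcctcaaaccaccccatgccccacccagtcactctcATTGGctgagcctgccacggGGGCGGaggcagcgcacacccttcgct
Lrrc66 upstream window: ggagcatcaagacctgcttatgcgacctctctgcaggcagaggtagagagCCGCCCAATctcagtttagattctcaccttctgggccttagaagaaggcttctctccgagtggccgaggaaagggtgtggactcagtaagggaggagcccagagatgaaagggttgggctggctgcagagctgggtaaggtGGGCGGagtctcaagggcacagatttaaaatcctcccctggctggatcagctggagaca
Scfd2 upstream window: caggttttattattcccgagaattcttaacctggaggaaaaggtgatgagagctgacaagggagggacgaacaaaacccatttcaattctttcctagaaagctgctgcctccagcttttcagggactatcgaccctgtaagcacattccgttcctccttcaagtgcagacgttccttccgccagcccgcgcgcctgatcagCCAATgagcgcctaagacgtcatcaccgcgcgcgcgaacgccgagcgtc

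Nipal1 and Lrrc66 each had 2 matches to GGGCGG and Scfd2 had 0, where 33% of 32536 upstream windows of this length in RefSeq hold at least 1. All 3 had 1 match to CCAAT, found in 33.8% of windows, which in Lrrc66 overlaps a match to GGGCGG on the opposite strand. None held TATAAA (12.3% of windows) or TGACGTCA, the full cAMP response element (1.56%), on either strand. The windows had 14 (Nipal1), 5 (Lrrc66) and 19 (Scfd2) CpG pairs, where the median over all windows was 6. The gene that was higher thus shared the printed motifs with one that was lower.

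Among the receptors and signalling genes of blood cells, 4 of 5 were tested and none passed in edgeR or DESeq2. Of the 4, 2 had an unadjusted p under 0.05, against 8.39% of all tested genes, with Tlr6 lower and Tec higher in the knockout. Tlr6, a Toll-like receptor that pairs with Tlr2 to sense bacterial lipopeptides, stood at 0.951, 0.853 and 1.08 CPM in WT mice 1, 2 and 3 and at 0.445, 0.3 and 0.356 CPM in the knockout mice. The genotypes did not overlap in CPM, but they did in TPM (log2 fold change -1.38, SE 0.36, edgeR adjusted p = 0.156). These values rest on counts of 21, 22 and 28 in WT against 11, 8 and 11 in knockouts. The gene row of Tlr6 differed from the sum of its transcripts by up to 17.7 counts in a library. Tec, a cytoplasmic tyrosine kinase, stood at 0.77, 0.543 and 0.501 CPM in WT against 1.05, 1.09 and 1.29 CPM in knockouts (log2 fold change 0.93, SE 0.32, adjusted p = 0.43). All 3 knockout libraries lay above the wild-type ones. Its relative Txk was at -0.18 and the small GTPase gene Rhoh at 0.08. Markers of white blood cells summed to between 184 and 233 CPM in WT and between 194 and 303 CPM in knockouts, with 9 of 10 tested markers above 0 and none past the test, and their part in these values was not tested.

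Pdgfra and Kdr, receptor tyrosine kinases for platelet-derived growth factor and for VEGF, were both above 0 without passing. Pdgfra, which in testis marks interstitial and peritubular cells, stood at 35.2, 49.9 and 45.7 CPM in WT mice 1, 2 and 3 and at 66.2, 67.1 and 58.5 CPM in the knockout mice. The knockout libraries lay above all wild-type libraries, in CPM and in TPM (log2 fold change 0.55, SE 0.14, edgeR adjusted p = 0.135). Kdr, a marker of endothelial cells, stood at 3.22, 5.16 and 4.74 CPM in WT against 6.02, 5.77 and 5.47 CPM in knockouts (log2 fold change 0.39, SE 0.19, adjusted p = 0.613). Its genotypes did not overlap either.

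Endothelial markers summed to between 72.5 and 92.9 CPM in WT and between 73.2 and 89.4 CPM in knockouts, with 4 of 9 tested markers above 0. Leydig cell markers summed to between 1762 and 2900 CPM in WT and between 2222 and 4958 CPM in knockouts. Of them 8 of 8 were above 0 and 2 were called higher, where 0.233% of all tested genes were called higher. The median log2 fold change was 0.70 for the Leydig markers and 0.01 for all tested genes. Peritubular and fibroblast markers summed to between 616 and 689 CPM in WT and between 477 and 646 CPM in knockouts, with 1 of 7 above 0. The part of these cells in the values of Pdgfra and Kdr was not tested.

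**Figure D4:**
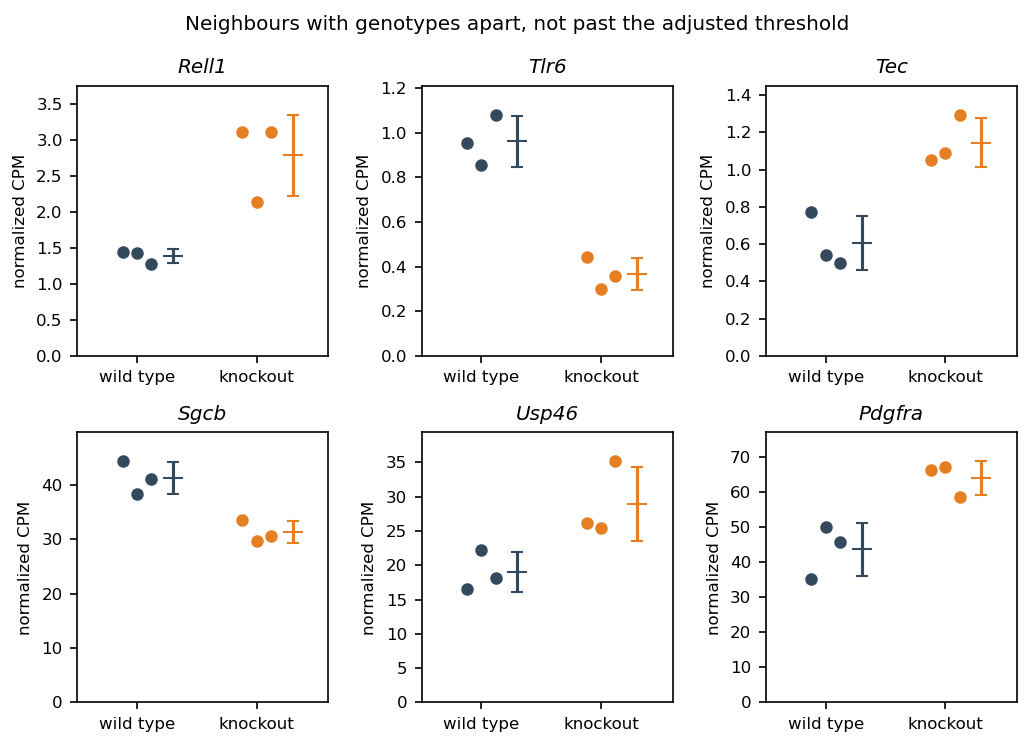
Normalized CPM (y axis, each panel starting at 0) of the 6 neighbours with the smallest p among those that did not pass, in 3 wild-type and 3 knockout libraries (points) with mean and SD. Rell1, Tec, Usp46 and Pdgfra have all knockout libraries on top, and Tlr6 and Sgcb have them at the bottom.

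The 10 factors of transcription, chromatin, DNA and RNA were all tested and lay between -0.11 and 0.29, with 0 called by edgeR or DESeq2. Against 8.39% of all tested genes, 1 of the 10 had an unadjusted p under 0.05. That gene was Bend4, with a BEN domain that binds DNA, at 97.2, 92.4 and 110 CPM in WT against 106, 118 and 142 CPM in knockouts (log2 fold change 0.29, SE 0.13, edgeR adjusted p = 0.591). Knockout mouse 1 fell within the wild-type range. N4bp2, which binds the ubiquitin ligase NEDD4, stood at 36.3, 35.4 and 40.8 CPM in WT and at 37.9, 37.3 and 52.2 CPM in knockout mice 1, 2 and 3. Its log2 fold change was 0.18 (edgeR adjusted p = 0.715), and -0.0010 without knockout mouse 3. The circadian factor Clock was at 0.04, the cohesin regulator Pds5a at 0.13 and the large subunit of the clamp loader, Rfc1, at 0.12. The RNA-binding protein gene Rbm47, the nearest of the 59 on the Rell1 side, was at -0.03. Apbb2, the nearest on the other side, was at -0.11.

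The 7 genes of the ubiquitin and cullin pathway were tested and 0 passed in edgeR or DESeq2. An unadjusted p under 0.05 was found for 1 of them, against 8.39% of all tested genes. Usp46, a deubiquitinase, stood at 16.6, 22.2 and 18.1 CPM in WT mice 1, 2 and 3 and at 26.1, 25.4 and 35.1 CPM in the knockout mice. The genotypes did not overlap in CPM (log2 fold change 0.61, SE 0.16, edgeR adjusted p = 0.165), but they did in TPM, and on centred TPM the value was -0.23. Of its 6 transcripts, a retained-intron transcript of 389 bases held 30.5, 22.7 and 32.5 estimated counts in WT against 0, 0 and 5.04 in knockouts, and the main one, of 4557 bases, held 334 ± 88 in WT against 612 ± 170 in knockouts (SD, n = 3). Neither passed among all transcripts (adjusted p = 0.732 and 0.864). Antisense genes overlap Usp46, and without a stated strand their reads cannot be told apart.

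Uchl1, a ubiquitin hydrolase abundant in spermatogonia, was among the most abundant neighbours, at a mean of 127 TPM over the 6 libraries. It stood at 108, 107 and 103 CPM in WT against 114, 97.7 and 74.4 CPM in knockouts, overlapping, with a log2 fold change of -0.15 that was 0.14 on log2(TPM + 1). Lnx1, a ubiquitin ligase, stood at 6.48, 7.83 and 6.47 CPM in WT and at 8.97, 8.06 and 7.63 CPM in knockouts (log2 fold change 0.25, edgeR adjusted p = 0.67). One knockout library fell inside the WT range. The ubiquitin-conjugating enzyme gene Ube2k was at 0.23 and the other 3, Klhl5, Commd8 and Dcun1d4, were at 0.14, -0.13 and -0.08.

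The transport group held both Atp10d and Nipal1, and 4 further members were tested. Atp8a1, of the same lipid flippase class as Atp10d, stood at 10.6, 11.3 and 12.1 CPM in WT against 14.7, 12.4 and 17.2 CPM in knockouts (log2 fold change 0.38, SE 0.15, edgeR adjusted p = 0.532). Its genotypes did not overlap, and they lay the other way round from those of Atp10d. Slc30a9, a zinc transporter, also had all knockout libraries above the wild-type ones in CPM, though not in TPM, at 0.19 (adjusted p = 0.671). Chrna9, a nicotinic acetylcholine receptor subunit, was at 0.57 (adjusted p = 0.641) and Tmem165, a Golgi ion transporter, at 0.06.

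Of the 10 genes of membrane traffic, cilia and cytoskeleton, Scfd2 passed. An unadjusted p under 0.05 was found for 1 more, where 8.39% of all tested genes had one. Sgcb, the beta subunit of the sarcoglycan complex that ties the muscle cytoskeleton to the matrix, stood at 44.3, 38.4 and 41.2 CPM in WT mice 1, 2 and 3 and at 33.6, 29.7 and 30.6 CPM in the knockout mice. The knockout libraries lay below the wild-type ones in CPM but not in TPM (log2 fold change -0.40, SE 0.12, edgeR adjusted p = 0.287). Tbc1d1, a GTPase-activating protein for Rab proteins, was at 0.16. Wdr19, of the intraflagellar transport machinery, was at -0.11. Slain2, a microtubule plus-end factor, was at 0.25, and Exoc1, a subunit of the exocyst, at 0.15. Fryl and Tmem33 were at 0.06, Limch1 at 0.09 and Fam114a1 at 0.38.

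Germ cell and mitochondrial genes were represented by 6 members, of which 5 were tested and 0 passed in edgeR or DESeq2. Of the 5, 1 had an unadjusted p under 0.05, against 8.39% of all tested genes. Spata18, also known as Mieap and involved in mitochondrial quality control, was the most abundant of the 59 genes at a mean of 136 TPM. It stood at 127, 152 and 195 CPM in WT against 163, 227 and 227 CPM in knockouts, with the first knockout library inside the wild-type range (log2 fold change 0.38, SE 0.17, edgeR adjusted p = 0.578). Pdcl2, a phosducin-like gene of germ cells, stood at 5.44, 3.53 and 3.54 CPM in WT and at 3.07, 3.6 and 4.4 CPM in knockouts, overlapping, with a log2 fold change of -0.17 that was 0.14 on log2(TPM + 1). The values of Guf1, a mitochondrial translation factor, Ociad1 and Ociad2 were 0.05, 0.03 and 0.06.

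The 4 metabolic enzymes had log2 fold changes between -0.14 and 0.29, and none passed or had an unadjusted p under 0.05. Srd5a3, a polyprenol reductase of protein glycosylation, stood at 8.92, 11.9 and 11.1 CPM in WT and at 15.3, 12.9 and 10.8 CPM in knockouts (log2 fold change 0.29, edgeR adjusted p = 0.651). Lias, lipoic acid synthase, stood at 14, 15.4 and 16.1 CPM in WT and at 15.6, 15.3 and 20.3 CPM in knockouts (log2 fold change 0.17, adjusted p = 0.736). Both genes overlapped between the genotypes. Ugdh, which makes UDP-glucuronic acid, and Gnpda2, a glucosamine-6-phosphate deaminase, were both at -0.14.

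Of the other membrane and secreted proteins 7 were tested, and beside Lrrc66 none passed. Rell1, a relative of the TNF receptor RELT and the outermost gene on its side, stood at 1.45, 1.43 and 1.27 CPM in WT mice 1, 2 and 3 and at 3.11, 2.14 and 3.11 CPM in the knockout mice. All knockout libraries lay above the wild-type ones, in CPM and TPM (log2 fold change 1.01, SE 0.24, edgeR adjusted p = 0.112). Smim14, a small membrane protein gene, stood at 98.4, 93.9 and 85.8 CPM in WT and at 106, 91.3 and 88.2 CPM in knockouts. It was among the 3 most abundant neighbours, at a mean of 127 TPM, and its log2 fold change was 0.04 and -0.015 on centred TPM. The natriuretic peptide convertase gene Corin was at -0.06, Chic2 at -0.09, Tmem156 at 0.19 and Shisa3 at -0.0024.

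The remaining 4 genes were close to silent in these testes and were not tested. Tlr1, another Toll-like receptor that pairs with Tlr2, gave counts of 1, 5 and 2 in WT mice 1, 2 and 3, against 2, 7 and 15 in knockouts. Zar1, a maternal factor of the oocyte, gave 2, 1 and 4 in WT against 3, 1 and 1 in knockouts. Slc10a4, a vesicular transporter of neurons, gave 1, 0 and 1 against 0, 0 and 3. The library totals were 23480448 to 28558865 counts.

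Cwh43, which remodels the lipid of GPI anchors, was the exception in a single mouse. Its counts were 62, 0 and 0 in WT mice 1, 2 and 3, against 1, 0 and 0 in the knockout mice. Nearly all of the 62 counts were assigned to its transcript of 2716 bases. Above single counts the gene was thus seen in 1 of 3 wild-type libraries, and no change between the genotypes was computed.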

How the data were processed

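Ribosomal and globin RNA was depleted, per the labels' protocols. The submitters' processing notes name kallisto 0.50.1 and mm39. Neither annotation release nor strand setting is named there. The authors deposited estimated counts (whole numbers per gene symbol, and per transcript) and TPM, per the file headers. Rmrp, the RNA of RNase MRP, took 11.4% to 33.3% of TPM, so TPM of other genes moves with it.

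Gene counts and rounded transcript estimates went through edgeR 4.0.16 under R 4.3.3 (TMM, filterByExpr with minimum count 10 and total 15, robust quasi-likelihood test, genotype alone, all 6 libraries, Benjamini-Hochberg adjusted p threshold 0.05 over all features). Each SE is |log2 fold change|/√F. Positive means higher in the knockout. TPM were tested with limma 3.58.1 on log2 values. DESeq2 1.42.0 was an alternative. Gene order, overlaps and transcript classes came from GENCODE M21 (GRCm38), which matched 93.6% of transcripts. Together with RefSeq (GRCm38.p6) synonyms and places for symbols it lacked, 93.6% of rows were placed. The transcript sums lay within 1 count of the gene row for all but 2 of the 59 genes, Limch1 and Tlr6. Columns of other samples numbered 0.

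Values per library were given for Nsun7, the called genes, the 10 next smallest p, the 2 smallest p of each role, the 3 most abundant and the untested genes. Members, lists and tests were chosen with earlier results of these data known. On simulated counts the gene test, over 21002 genes, found 14%, 84%, 94% and 100% of genes changed by 0.5, 1, 2 and 3 (log2); false calls made up 7.01% of 157. The transcript test, over 58773 transcripts, found 2%, 16%, 57.1% and 77.1% for the same sizes. False calls made up 1.33% of 75. Changed features were drawn from rows above a set mean count only. Each feature had the spread shared by features of like abundance and none of its own. The shares found need not hold for low or more variable rows.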

Additional observations from a re-analysis of the deposited data

How the results depend on the processing

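Of the 59 neighbours 4 were called under RLE and upper quartile scaling, no low-count filter, DESeq2 and voom, and 3 at a mean CPM of at least 1, where Nipal1 was not tested. The count was 3 to 4 when single libraries were left out. It was 2 when WT mouse 1 and knockout mouse 3 were dropped together (the pair), 1 on log2(TPM + 1), 2 on log2(TPM + 0.1), 2 on centred TPM and 0 on TPM with no filter. All tested genes called numbered 119, with 180 under no filter, 203 in DESeq2, 61 on log2(TPM + 1), 68 on log2(TPM + 0.1), 63 on centred TPM, 12 on unfiltered TPM and 67 to 166 over the leave-one-out fits. Other called rows of the stretch numbered 2. They numbered 3 with no low-count filter, in DESeq2, with the replicate block, without WT mouse 2 and without knockout mouse 1, and 1 without the pair of libraries, on log2(TPM + 0.1) and on unfiltered TPM. The neighbours' median moved from 0.06 to 0.33 on uncentred TPM, filtered or not. Nsun7 was at -0.46 (adjusted p = 0.395) and -0.50 (0.394) on log2 TPM with pseudocounts 1 and 0.1, -0.75 (0.0878) centred, -0.46 (0.519) unfiltered, and -1.03 to -0.76 in the leave-one-out fits, 4 of which ended its call. Member transcripts called fell from 1 to 0 in every leave-one-out fit (16 to 28 with an unadjusted p under 0.05).

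Whether the mouse numbers pair the libraries was not tested. Deviations from the group means correlated at 0.18, -0.0048 and 0.20 for numbers 1, 2 and 3. The libraries numbered 1 and 3 correlated best with their own number, in both genotypes. Those numbered 2 did not. Wild-type mouse 2 correlated best with knockout mouse 1 (0.056), and knockout mouse 2 with wild-type mouse 3 (0.028). With the mouse number as a replicate block 7 neighbours were called (Rell1, Usp46 and Pdgfra added), 331 of all genes, and 0 member transcripts (24 at an unadjusted p under 0.05).

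Some uncalled values changed sign: Pdcl2 (-0.32 to 0.054 in leave-one-out fits; 0.14, 0.16 and 0.14 on uncentred TPM), Smim14 (-0.056 to 0.14 with libraries left out, -0.015 on centred TPM), N4bp2 (-0.018 without the pair to 0.26), Lias (-0.026 without the pair to 0.24), Uchl1 (-0.31 to 0.014 without the pair, 0.14 on uncentred TPM) and Usp46 (0.61, and -0.23 on centred TPM). None of these was called in those settings. At this depth and 3 libraries per genotype, log2 changes of 0.5 were mostly missed on simulated counts (14% found).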
